A study of Rattus norvegicus with 88 samples.

Results

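The genes described here were a set of 5 chaperone and stress response genes, Hspa5, Hspa8, Hsp90ab1, Hspb1 and Hmox1, in RNA-Seq data from heterogeneous stock (HS) rats. They were chosen by name for their function, as the Ensembl identifiers ENSRNOG00000018294, ENSRNOG00000034066, ENSRNOG00000019834, ENSRNOG00000023546 and ENSRNOG00000014117 in that order. All 5 of the 5 identifiers had an entry among the 17123 genes of the expression table. The table held 80 libraries, each from the bilateral orbitofrontal cortex of a separate rat, 41 males and 39 females. HS rats are an outbred population bred from inbred founder strains, so that each rat carried its own mosaic of founder haplotypes. No rat had been through a behavioural test or given a drug, all lived with cage mates, and the study gives a mean age for each sex rather than an age for each rat. The groups compared were the rat batches of the labels, and what such a batch stands for is likewise not given in the sources used here. Batch 2 held 4 females and 11 males, batch 3 held 12 females and 10 males, batch 4 held 14 females and 12 males, and batch 6 held 8 of each sex. Batch 5 was a single female, and it entered no comparison between batches.

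Chaperones bind proteins that are not folded and keep them from clumping while they reach their shape. Some are made in every cell at all times, and others rise when proteins unfold, when the endoplasmic reticulum (ER) is overloaded or when the cell is under oxidative stress. Neurons hold large amounts of the constitutive cytosolic chaperones, whereas small heat shock proteins and the inducible haem oxygenase are, in brain, known mainly from glia and vessels. The tissue was sequenced in bulk, so fewer cells of a type and less RNA per cell cannot be told apart in any value given here. Markers of cell types could not be matched to the identifiers, so the labelled tissue was not checked against them.

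Depth per library, recovered from the spacing of the scaled counts, ran from 5.67 to 25.6 M reads (M, 1000000 reads) with a median of 18.3 M. In simulated libraries the spacing was recovered to within 1% in 18 of 20. The library with the most genes at 0, with 1628 against a median of 509, was given 20.5 M. Batch 2 had 16.8 ± 3.93 M (SD, n = 15) and batch 3 had 16.2 ± 3.96 M (n = 22), whereas batch 4 had 19.2 ± 3.18 M (n = 26) and batch 6 had 19.9 ± 2.22 M (n = 16). In the order of the table the columns fell into 3 stretches of ascending identifiers. Stretch 1 held 14 libraries of batch 2 and 7 of batch 3, stretch 2 held 1 of batch 2 and 12 of batch 3, and stretch 3 held 3 of batch 3 with all of batches 4, 5 and 6. What the stretches stand for is not given in the sources used here. Because batches 4 and 6 lay wholly in stretch 3, a difference between them and batch 2 cannot be told apart from a difference between stretches, except through the few libraries that cross over.

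The stretch of DNA just upstream of each start site is shown because heat shock and ER stress act on these genes through short elements there. The set of RefSeq promoters used here (build GRCr8) had an entry for 4 of the 5 symbols, and Hmox1 is named only. The 250 bases before the start are printed 5′ to 3′ on the strand of the gene, with matches to the elements searched in capitals. The windows lie at chr3:38452766-38453015 (plus strand) for Hspa5, chr8:50080264-50080513 (plus) for Hspa8, chr12:26432302-26432551 (minus) for Hspb1 and chr9:22930173-22930422 (plus) for Hsp90ab1.
Hspa5: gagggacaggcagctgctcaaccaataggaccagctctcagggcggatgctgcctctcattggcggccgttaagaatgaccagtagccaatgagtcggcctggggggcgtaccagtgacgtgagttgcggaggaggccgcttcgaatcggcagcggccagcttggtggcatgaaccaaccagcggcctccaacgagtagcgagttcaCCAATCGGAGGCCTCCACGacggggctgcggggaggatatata
Hspa8: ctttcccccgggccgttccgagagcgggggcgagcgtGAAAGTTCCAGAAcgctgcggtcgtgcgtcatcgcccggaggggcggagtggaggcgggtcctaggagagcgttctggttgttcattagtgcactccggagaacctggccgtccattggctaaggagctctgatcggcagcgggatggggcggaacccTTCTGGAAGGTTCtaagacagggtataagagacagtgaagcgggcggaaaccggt
Hspb1: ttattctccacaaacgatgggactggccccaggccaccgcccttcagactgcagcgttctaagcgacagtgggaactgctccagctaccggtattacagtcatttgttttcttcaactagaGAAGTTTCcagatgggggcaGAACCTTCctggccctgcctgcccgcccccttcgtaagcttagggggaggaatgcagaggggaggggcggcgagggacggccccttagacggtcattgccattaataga
Hsp90ab1: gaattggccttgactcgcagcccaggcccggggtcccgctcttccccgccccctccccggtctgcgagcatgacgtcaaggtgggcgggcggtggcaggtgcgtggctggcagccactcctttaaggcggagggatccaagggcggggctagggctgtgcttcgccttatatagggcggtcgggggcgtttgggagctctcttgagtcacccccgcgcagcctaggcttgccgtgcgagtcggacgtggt
The letters searched, on both strands, were the ER stress response element, CCAAT and CCACG separated by any 9 bases, and the paired heat shock units TTCNNGAA and GAANNTTC. The search window ran from 250 bases before to 50 bases after the start. The ER stress element occurred in Hspa5, from base -43 to base -25 before the start, and in 22 of the 33469 promoters of the table (0.0657%). TTCNNGAA occurred at 2 places in Hspa8, and 8.77% of all promoters held it. GAANNTTC occurred at 2 places in Hspa8, each overlapping a TTCNNGAA, and at 2 places in Hspb1, and 8.59% of all promoters held it. Hsp90ab1 held none of the 3. A match is a string of letters and not a site shown to be bound.

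All 5 genes were above 0 in every library, and they differed widely in how far they varied from rat to rat. The values are normalized read counts, which the authors scaled to the upper quartile of each library, and means and SDs are on the scale log2(normalized count + 1). No transcript lengths were used, so levels are compared between rats within a gene and not between genes. Hspa5, which encodes the ER chaperone BiP, ran from 4091 through a median of 7223 to 11936, a 2.92-fold range, with a mean of 12.77 ± 0.30 (SD, n = 80). Hspa8, the constitutive cytosolic member of the Hsp70 family, ran from 7850 through 12105.5 to 16732, a 2.13-fold range (13.57 ± 0.21). Hsp90ab1, the constitutive cytosolic Hsp90, ran from 25693 through 29957 to 42714 and had the narrowest range of the 5, 1.66-fold (14.90 ± 0.15). Hspb1, a small heat shock protein that holds unfolded proteins without using ATP, had the widest. It ran from 44 through 181.5 to 400, a 9.09-fold range (7.39 ± 0.72). Hmox1, the inducible enzyme that breaks down haem, ran from 60 through 108 to 163, a 2.72-fold range (6.73 ± 0.32). Copies of Hspa8 listed as pseudogenes in RefSeq could share its reads, and RSEM divides such reads by estimate, so the Hspa8 values are uncertain in that respect.

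**Figure D1:**
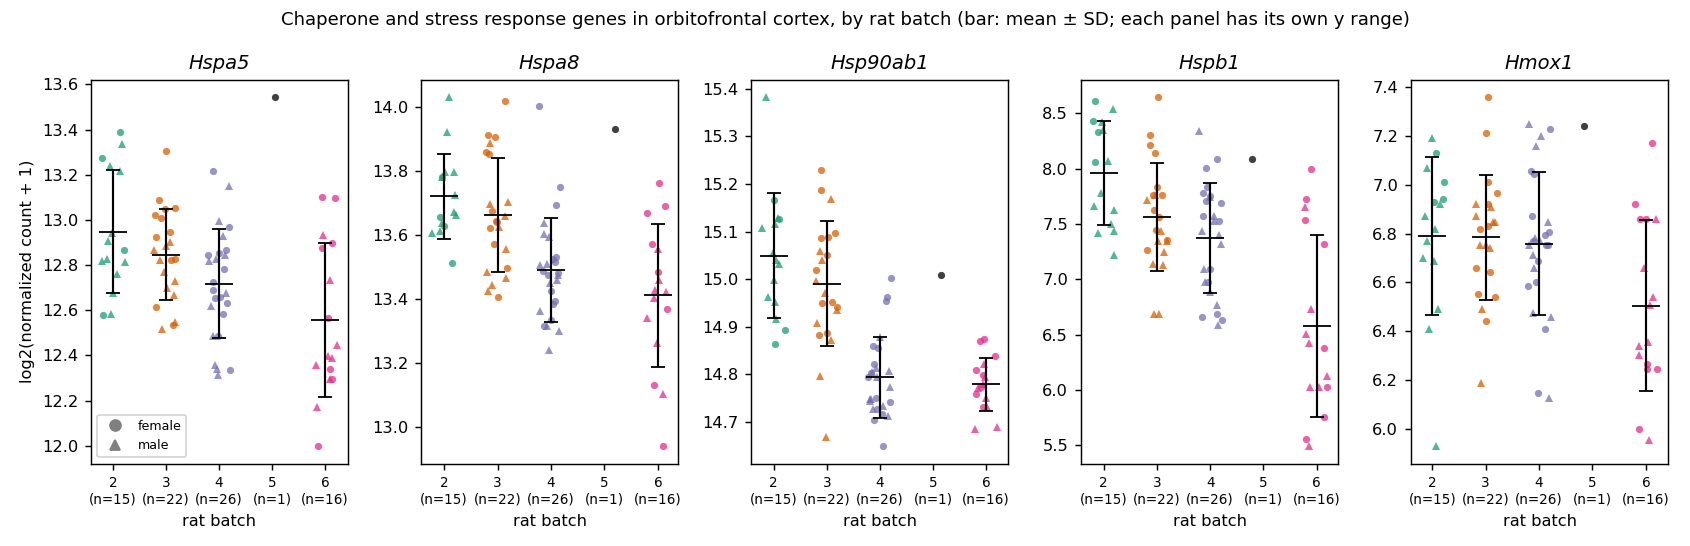
Level of each gene in every rat, on the scale log2(normalized count + 1), by rat batch. Circles are females, triangles are males, and the bars give the mean ± SD of a batch, with n under its number. Hspb1 is at 7.96 in batch 2 and 6.58 in batch 6, and the y axis differs between panels.

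Levels differed between rat batches in all 5 genes, and in each of them the mean was lowest in batch 6. The F test across batches 2, 3, 4 and 6 with sex in the model (limma, Benjamini-Hochberg adjustment over all genes) called 5 of 5, where 64.7% of all 17123 genes were called. A batch difference was thus common in the table and is not particular to these genes. Of the 30 differences between pairs of batches in the 5 genes, 30 were lower in the batch with the higher number, and 17 passed the test. Under quantile normalization 1 of the 30, Hsp90ab1 in batch 6 against batch 4, turned to 0.02 and did not pass (adjusted p = 0.565). The pairs share their batches, so these 30 are not independent. The share of all genes with the same order of signs, or lowest in batch 6, was not computed. Over genes within 1 log2 unit of Hspa5, Hspa8 or Hsp90ab1 the median difference was also negative in each pair. Around Hspb1 and Hmox1 it was positive in each pair. The share of all genes called lower was 5.23% for batch 3 against 2, 24.1% for 4 against 2, 26.6% for 6 against 2, 21.6% for 4 against 3, 25.1% for 6 against 3 and 7.49% for 6 against 4.

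Hspb1 had the largest difference of the 5 genes in each pair of batches except 4 against 3, where that of Hsp90ab1 was -0.20. Its lowest, median and highest counts were 148, 266 and 391 in batch 2 and 102, 180.5 and 400 in batch 3. In batch 4 they were 95, 177.5 and 323, and in batch 6 they were 44, 83.5 and 254. The ranges of all 4 batches overlapped, but the median of batch 6 lay below the lowest rat of each of the other 3. The difference of batch 6 from batch 2 was -1.47 ± 0.19 (log2 difference ± SE, limma adjusted p = 4.35e-10, with 53.8% of all genes called in that pair and 26.6% called lower). Hspb1 was also lower in batch 6 than in batch 3 (-0.97 ± 0.17, limma adjusted p = 2.02e-06, with 50.9% of genes called). Against batch 4 the difference was -0.78 ± 0.17 (limma adjusted p = 0.000847), in a pair in which 13.6% of all genes were called and 7.49% were called lower. It was the only gene of the 5 called between batches 4 and 6, apart from Hmox1 under 2 other settings given below. Between batches 2 and 4 the difference was -0.70 ± 0.17 (limma adjusted p = 0.000497, with 48.6% of genes called). The differences of batch 3 from batch 2 (-0.51 ± 0.18, adjusted p = 0.0564, with 9.79% of genes called) and of batch 4 from batch 3 (-0.19 ± 0.15, adjusted p = 0.331, with 42.9% called) did not pass, although the first did with array weights (-0.52, adjusted p = 0.0361). Over the 3647 genes within 1 log2 unit of Hspb1's mean level, the median difference of batch 6 from batch 2 was 0.05.

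Hspa5 had counts of 6111, 7458 and 10732 (lowest, median and highest) in batch 2 and 5857, 7372 and 10109 in batch 3, against 5094, 6687.5 and 9524 in batch 4, and 4091, 5488 and 8798 in batch 6. All ranges overlapped, and the median of batch 6 was below the lowest rats of batches 2 and 3. The difference of batch 6 was -0.42 ± 0.09 from batch 2 (limma adjusted p = 4.77e-05) and -0.28 ± 0.08 from batch 3 (adjusted p = 0.00236). The difference of batch 4 from batch 2 was -0.26 ± 0.08 (limma adjusted p = 0.00503), but under quantile normalization this pair no longer passed (adjusted p = 0.0617). The highest Hspa5 of all 80 rats, 11936, was that of the single female of batch 5, which ranked 4 for Hspa8, 3 for Hmox1, 13 for Hspb1 and 20 for Hsp90ab1. This rat is 1 library and gives no estimate for its batch.

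Hspa8 had counts of 11680, 13055 and 16732 in batch 2 and 10845, 12768 and 16585 in batch 3, against 9664, 11398.5 and 16426 in batch 4, and 7850, 10992 and 13880 in batch 6. The ranges overlapped, and the median of batches 4 and 6 lay below the lowest rat of batch 2. The difference from batch 2 was -0.25 ± 0.06 in batch 4 (limma adjusted p = 0.000160) and -0.32 ± 0.06 in batch 6 (adjusted p = 7.54e-06). From batch 3 the difference was -0.17 ± 0.05 in batch 4 (limma adjusted p = 0.00345) and -0.25 ± 0.06 in batch 6 (adjusted p = 0.000146). Batches 2 and 3 (-0.08 ± 0.06, adjusted p = 0.453) and batches 4 and 6 (-0.08 ± 0.05, adjusted p = 0.372) were not told apart. Under quantile normalization the difference of batch 6 from batch 2 was -0.18 (adjusted p = 0.00607), and that of batch 4 from batch 3 did not pass (adjusted p = 0.0939).

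Hsp90ab1 was lower in batches 4 and 6 than in batches 2 and 3. Its counts were 29795, 33692 and 42714 in batch 2 and 26052, 32380.5 and 38390 in batch 3, against 25693, 28217 and 32821 in batch 4 and 26328, 28052 and 30025 in batch 6. The highest rat of batch 6 was above the lowest rat of batch 2 by a narrow margin, and the median of batches 4 and 6 was below every rat of batch 2. The differences from batch 2 were -0.27 ± 0.03 in batch 4 (limma adjusted p = 7.15e-10) and -0.28 ± 0.04 in batch 6 (adjusted p = 2.68e-09). From batch 3 they were -0.20 ± 0.03 (limma adjusted p = 1.47e-07) and -0.21 ± 0.03 (adjusted p = 4.83e-07). Batch 6 differed from batch 4 by -0.01 ± 0.03 (adjusted p = 0.852). Over the 121 genes within 1 log2 unit of Hsp90ab1 the median difference of batch 6 from batch 2 was -0.18, with quartiles at -0.28 and -0.01. The same median was -0.10 around Hspa5 and -0.14 around Hspa8, against 0.01 over all genes. Under quantile normalization, which gives every library the same distribution of values, the Hsp90ab1 difference of batch 6 from batch 2 was -0.07 (adjusted p = 0.0376). Those from batch 3 did not pass (adjusted p = 0.146 for batch 4 and 0.622 for batch 6). Why the differences were smaller in this setting was not tested.

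Hmox1 passed in 2 of the 6 pairs of batches, the fewest of the 5 genes. Its counts were 60, 116 and 145 in batch 2 and 72, 112.5 and 163 in batch 3, against 69, 107.5 and 151 in batch 4, and 61, 85.5 and 143 in batch 6, so that the ranges lay almost on top of each other. Batch 6 was lower than batches 2 and 3, with a difference of -0.31 ± 0.11 from batch 2 (limma adjusted p = 0.0130) and of -0.28 ± 0.10 from batch 3 (adjusted p = 0.0148). Its difference from batch 4, -0.25 ± 0.10, did not pass (adjusted p = 0.0668), although it did under quantile normalization (adjusted p = 0.0491) and with array weights (0.0356). Without batch 6 the F test did not call Hmox1 (limma adjusted p = 0.869), whereas the other 4 genes stayed called, with 52.7% of all genes called.

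**Figure D2:**
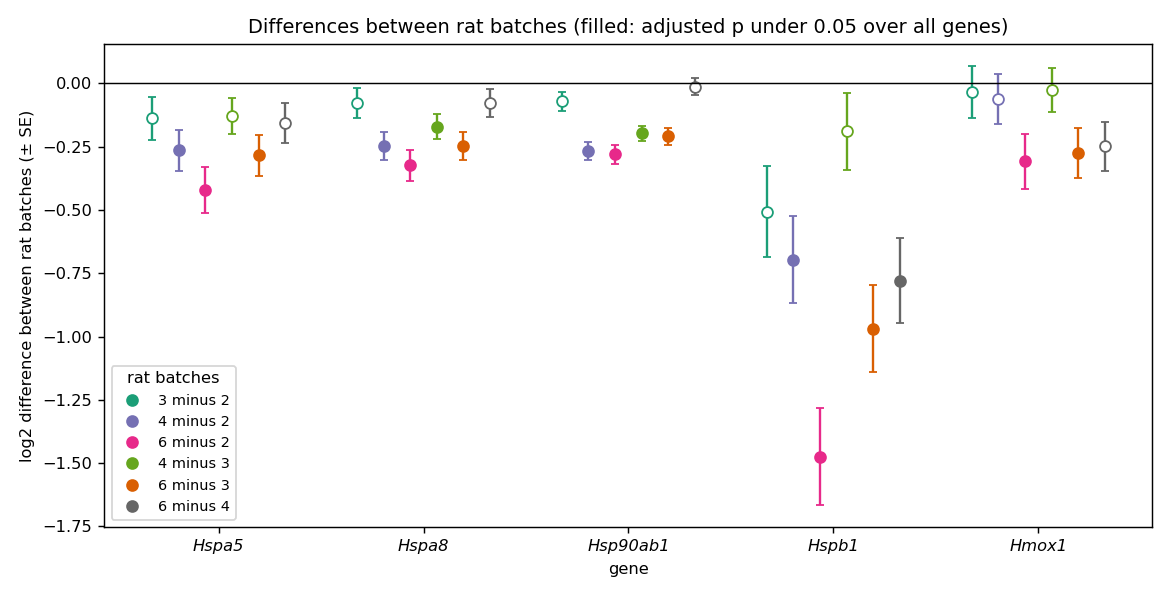
Log2 difference between each pair of rat batches for each gene, on the log2(normalized count + 1) scale with sex in the model. Points are differences, bars are ± SE, and filled points passed an adjusted p of 0.05 over all genes. The Hspb1 difference of batch 6 from batch 2, at -1.47, is the lowest point, and all 30 points are below 0, of which the Hsp90ab1 point for batch 6 against 4 turns to 0.02 under quantile normalization.

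Fewer of these calls held once the column stretches were taken into account. With the stretch as a further term, the batch test called 1 of the 5 genes, Hspb1 (limma adjusted p = 0.00207), where 18.6% of all genes were called. The adjusted p was 0.0941 for Hspa5, 0.0995 for Hmox1, 0.370 for Hspa8 and 0.661 for Hsp90ab1. With this term the difference of batch 6 from batch 2 (± SE by ordinary least squares) was -0.52 ± 0.20 for Hspa5 and -0.46 ± 0.23 for Hmox1, no smaller than without it, and the SE was larger. It was -1.22 ± 0.42 for Hspb1 and -0.24 ± 0.14 for Hspa8. For Hsp90ab1 it shrank to -0.11 ± 0.08. The difference of batch 4 from batch 2 with this term was -0.44 ± 0.41 for Hspb1 and -0.36 ± 0.19 for Hspa5. It was -0.17 ± 0.13 for Hspa8, -0.22 ± 0.22 for Hmox1 and -0.10 ± 0.07 for Hsp90ab1. With 20 principal components in the model in place of the stretch, the batch test called 0 of the 5 and 0.00584% of all genes. The components were drawn from these same expression values, so this fit cannot separate batch differences from what they hold. They went with 85.1% of the variance of Hspa5, 68.4% for Hspa8, 81.1% for Hspb1, 56.3% for Hmox1 and 86.0% for Hsp90ab1. The median gene had 67.6%. Inside stretch 3 alone, batches 4 and 6 differed in Hspb1 (limma adjusted p = 0.00631) and in none of the other 4, with 13.7% of genes called. These are the same libraries as in the comparison of batches 4 and 6 above, so this fit is not a separate check. Inside stretch 1 alone, batches 2 and 3 differed in 0 of the 5, with 1.94% of genes called. For batches 2 and 3 the count was also 0 over all stretches. The stretch itself, with batch and sex in the model, was called for 0 of the 5, where 19.2% of genes were called, and the smallest adjusted p was that of Hsp90ab1 (0.0841). Stretch 3 differed from stretch 1 by -0.17 for Hsp90ab1, -0.08 for Hspa8 and -0.26 for Hspb1, the direction of the batch differences, and by 0.10 for Hspa5 and 0.17 for Hmox1, the other direction. In batch 3, the batch that crossed all stretches, Hsp90ab1 was 14.98 ± 0.13 (SD, n = 7) in stretch 1, 15.04 ± 0.09 (n = 12) in stretch 2 and 14.83 ± 0.18 (n = 3) in stretch 3. The last value was near the 14.79 ± 0.08 of batch 4, and it rests on 3 rats. For all 5 genes, a difference of batch 4 or 6 from batch 2 can be told from the stretch only through the libraries that cross over. For Hsp90ab1, and the others not called with the stretch term, the batch and the stretch were not told apart.

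Males and females did not differ past the threshold in any of the 5 genes, a test in which 0.117% of all genes were called. Hspb1 came closest. In females its mean level was 8.36, 7.83, 7.43 and 6.79 in batches 2, 3, 4 and 6, and in males it was 7.82, 7.25, 7.31 and 6.37. Males were thus lower in each of the 4 batches. Adjusted for batch, the difference of males from females was -0.38 ± 0.12, with an unadjusted p of 0.00224 and a limma adjusted p of 0.304 over all genes. For Hspa5 the difference of males from females was -0.12 ± 0.06 (limma adjusted p = 0.639), for Hspa8 -0.06 ± 0.04 (0.811), for Hmox1 -0.10 ± 0.07 (0.834) and for Hsp90ab1 -0.04 ± 0.02 (0.768). The interaction of sex and batch was called for 0 of the 5 and for 0 of all genes by limma, with 451 genes at an unadjusted p under 0.05 and the 5 genes between 0.324 and 0.710.

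The spread between rats of the same sex and batch was, for their level, large for Hspb1 and Hspa5. The residual SD on the log2 scale was 0.54 for Hspb1, above 96.2% of the 3647 genes within 1 log2 unit of its level, whose median was 0.23. For Hspa5 it was 0.25, above 96.9% of 834 such genes (median 0.12), and for Hspa8 0.17, above 87.7% of 397 (median 0.12). Hmox1, at 0.30, was close to the middle of its 3050 neighbours in level (59.5%, median 0.28), as was Hsp90ab1 at 0.10 among 121 (39.7%, median 0.12). Counting error was a small part of this in 4 genes. The SD that the read number alone would give in the median library was 0.0178 for Hspa5, 0.0133 for Hspa8, 0.0084 for Hsp90ab1 and 0.114 for Hspb1, which had a median of 159 recovered reads. For Hmox1, with 100.1 recovered reads in the median library and 33.1 in the lowest, it was 0.144 against the 0.30 observed. These values cover counting error only.

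**Figure D3:**
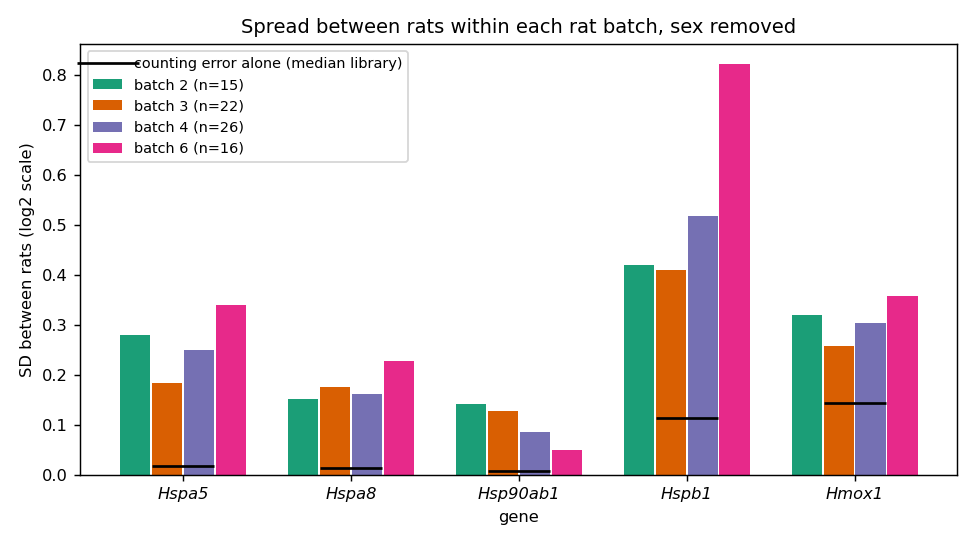
SD between rats within each rat batch after sex was removed, on the log2 scale. Bars are batches and start at 0, and the black line marks the SD from counting error alone in the median library. The Hspb1 bar of batch 6 reaches 0.82 and the Hsp90ab1 bar of batch 6 0.05.

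Within single batches the spread was widest in batch 6 for 4 genes and narrowest there for Hsp90ab1. Hspb1 had an SD of 0.42, 0.41, 0.52 and 0.82 in batches 2, 3, 4 and 6. Hspa5 (0.28, 0.18, 0.25 and 0.34 in the same order) and Hspa8 (0.15, 0.17, 0.16 and 0.23) were also widest in batch 6, and so was Hmox1 (0.32, 0.26, 0.30 and 0.36). Hsp90ab1 had 0.14 and 0.13 in batches 2 and 3 and 0.08 and 0.05 in batches 4 and 6. The median over the 14803 genes whose mean log2 value reached 3 was between 0.20 and 0.22 in each batch. The differences in spread were not tested. Rat batch went with 55.9% of the variance of Hsp90ab1, 40.7% of that of Hspb1, 34.5% for Hspa8, 28.3% for Hspa5 and 15.1% for Hmox1, against 22.1% for the median gene. The column stretch went with 57.5% for Hsp90ab1, 25.9% for Hspa8, 22.4% for Hspb1, 11.5% for Hspa5 and 5.56% for Hmox1, against 16.7% for the median gene, and these shares overlap because batch and stretch do.

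From rat to rat the 5 genes moved together in part. After sex and batch were removed, 6 of the 10 pairs passed a regression in both directions (limma, adjusted over all genes), and all 6 correlations were positive. The share of all genes called, in either direction, was 16.1% against Hspa5, 3.88% against Hspa8, 9.04% against Hspb1, 3.05% against Hmox1 and 18.2% against Hsp90ab1. In the positive direction it was 6.96%, 1.48%, 5.13%, 1.72% and 8.6% in the same order. The values below are Pearson's r and Spearman's rho of the residuals of the 80 rats, with permutation p-values adjusted over the 10 pairs.

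The ER and cytosolic Hsp70 genes had the highest r of the 10 pairs. Hspa5 and Hspa8 had r = 0.54 and rho = 0.54 (permutation p = 1e-05 for r, the smallest the permutations can give, and 2e-05 for rho, adjusted 0.0001 and 0.0002). By batch, r was 0.15, 0.36, 0.69 and 0.74 in batches 2, 3, 4 and 6, and without the 2 rats farthest from the median of Hspa5 it was 0.55. One of those rats was the single female of batch 5, which its own batch term fits exactly. In every pair with Hspa5, leaving out the 2 farthest rats thus removed only a single rat that bears on r. Hspa5 and Hspa8 were the only pair still called without batch 6 (r = 0.44, larger limma adjusted p of both directions 0.0407). The share of all genes called without batch 6 was 8.77% against Hspa5, 0.736% against Hspa8, 5.06% against Hspb1, 0.514% against Hmox1 and 19% against Hsp90ab1.

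Hspb1 was called with both Hsp70 genes, and these calls rested on batch 6. With Hspa5 it had r = 0.46 and rho = 0.36 (permutation p = 0.0001 and 0.00205, adjusted 0.0005 and 0.00682), with r = 0.22, 0.29, 0.19 and 0.85 by batch and 0.43 without the 2 farthest rats. With Hspa8 it had r = 0.35 and rho = 0.27 (permutation p = 0.00392 and 0.0212, adjusted 0.00653 and 0.0353), with r = -0.08, 0.16, 0.08 and 0.80 by batch and 0.32 without the 2 farthest rats. Without batch 6 neither was called, with r = 0.22 and 0.08 (limma adjusted p = 0.291 and 0.833). In batch 6 alone both were called (limma adjusted p = 0.00697 and 0.0283, where 4.37% of genes were called against Hspa5, 0.66% against Hspa8 and 1.26% against Hspb1). A test of whether the slope differed between batches was added after the data were seen. It did not pass for either (limma adjusted p = 0.258 for Hspb1 on Hspa5 and 0.178 for Hspb1 on Hspa8), with 0.21% and 0.0526% of genes called. The call of Hspa8 with Hspb1 was narrow (larger limma adjusted p of both directions 0.0461) and held in 5 of 14 alternatives. It was also lost under quantile normalization (0.0639), with the stretch term (0.0522) and without batch 4 (0.0594).

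In batch 6 the widest gap between neighbouring rats in Hspb1 was 0.59, and the widest gaps of the other batches were not computed. Above it were 5 rats, 4 females and 1 male, with Hspb1 from 7.32 to 7.99, and below it 11 rats, 4 females and 7 males, with Hspb1 from 5.49 to 6.73. The 5 rats also had the highest Hspa5 of the batch, from 12.87 to 13.10 against 11.999 to 12.73 in the other 11. Their Hspa8 lay between 13.56 and 13.76, against 12.94 to 13.49, so that these ranges did not overlap either. Hmox1 and Hsp90ab1 overlapped. The depth of the 5 libraries, 18.7 to 22.04 M reads, lay inside the 16.5 to 23.6 M of the other 11. The gap was found from these values, so the 5 rats are described and not tested. Within the 11 rats below it, r was taken from the levels themselves, with sex not removed. It was 0.28 for Hspa5 with Hspa8, 0.36 for Hspa5 with Hspb1 and 0.58 for Hspa8 with Hspb1. These values are not the same measure as the r of the residuals given by batch.

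**Figure D4:**
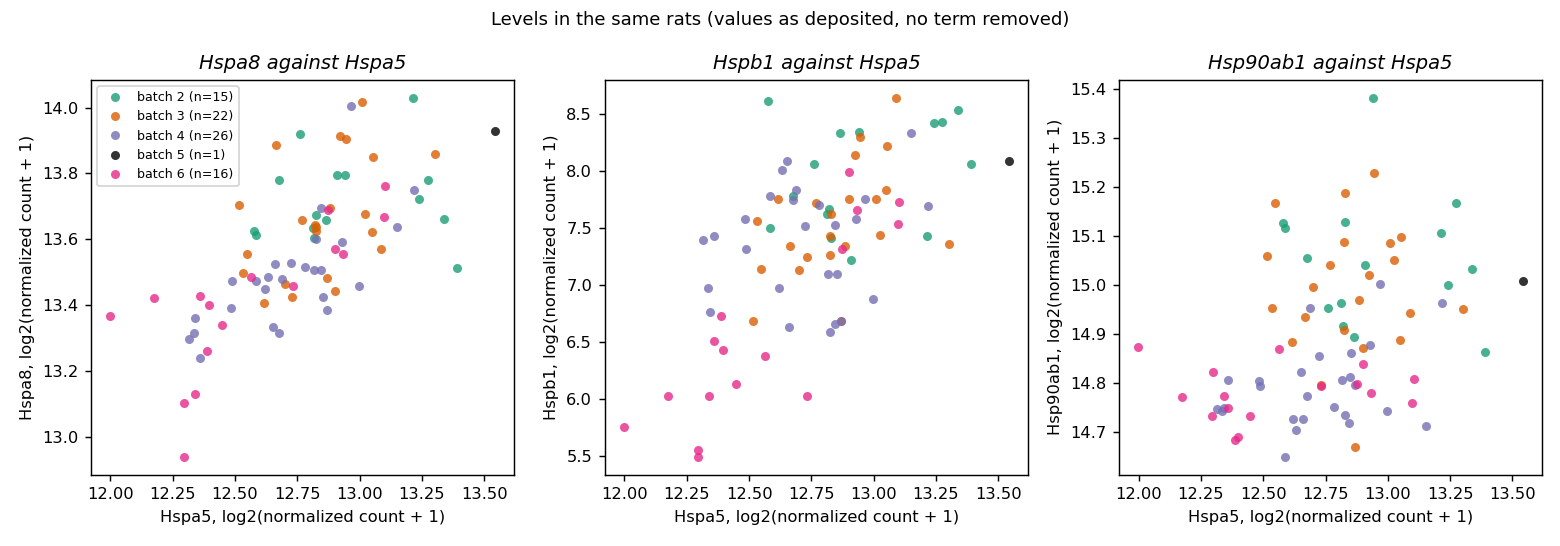
Hspa8, Hspb1 and Hsp90ab1 against Hspa5 in the same rats, all on the scale log2(normalized count + 1) with no term removed. Each point is a rat, coloured by rat batch. In the middle panel the batch 6 rats lie along a rising line with a gap in Hspb1. In the right panel batches 4 and 6 lie lower than most rats of batches 2 and 3.

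Hmox1 was called with Hspb1 and with Hspa5. With Hspb1 it had r = 0.42 and rho = 0.39 (permutation p = 0.00027 and 0.00065, adjusted 0.0009 and 0.00325), with r = 0.58, 0.15, 0.26 and 0.65 in batches 2, 3, 4 and 6 and 0.42 without the 2 farthest rats. With Hspa5 it had r = 0.36 and rho = 0.34 (permutation p = 0.00238 and 0.00391, adjusted 0.00476 and 0.00782), with r = 0.33, 0.14, 0.24 and 0.63 by batch and 0.32 without the 2 farthest rats. Without batch 6 neither was called, with r = 0.30 and 0.24 (limma adjusted p = 0.198 and 0.323). The call of Hspa5 with Hmox1 held in 3 of 14 alternatives, and it was also lost with the stretch term (0.0748) and without batch 2, 3 or 4 (0.102, 0.1 and 0.0794). Hmox1 and Hspa8 were not called (r = 0.17, rho = 0.14, permutation p = 0.148 and 0.238, adjusted 0.212 and 0.341).

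Hsp90ab1 was called with Hspa8 and with none of the other 3. Their r was 0.36 and rho 0.34 (permutation p = 0.00047 and 0.00273, adjusted 0.00117 and 0.00682), and r was positive in each batch, at 0.41, 0.46, 0.39 and 0.22, and 0.35 without the 2 farthest rats. The call was narrow (larger limma adjusted p of both directions 0.049), and it held in 2 of 14 alternatives. It was lost without the library with the most genes at 0 (0.0594), with a depth term (0.0594), under quantile normalization (0.259) and without batch 2, 3, 4 or 6 (0.116, 0.186, 0.272 and 0.075). Hsp90ab1 was not called with Hspa5 (r = 0.02, rho = 0.07, permutation p = 0.818 and 0.501), Hspb1 (r = 0.11, rho = 0.06, permutation p = 0.243 and 0.572) or Hmox1 (r = 0.09, rho = 0.10, permutation p = 0.445 and 0.39). Without that same library the pairs of Hspa5 with Hmox1 (limma adjusted p = 0.0599) and of Hspa8 with Hspb1 (0.0573) were also lost. Sequencing depth correlated with the residual of each gene at r between -0.17 and 0.23.

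**Figure D5:**
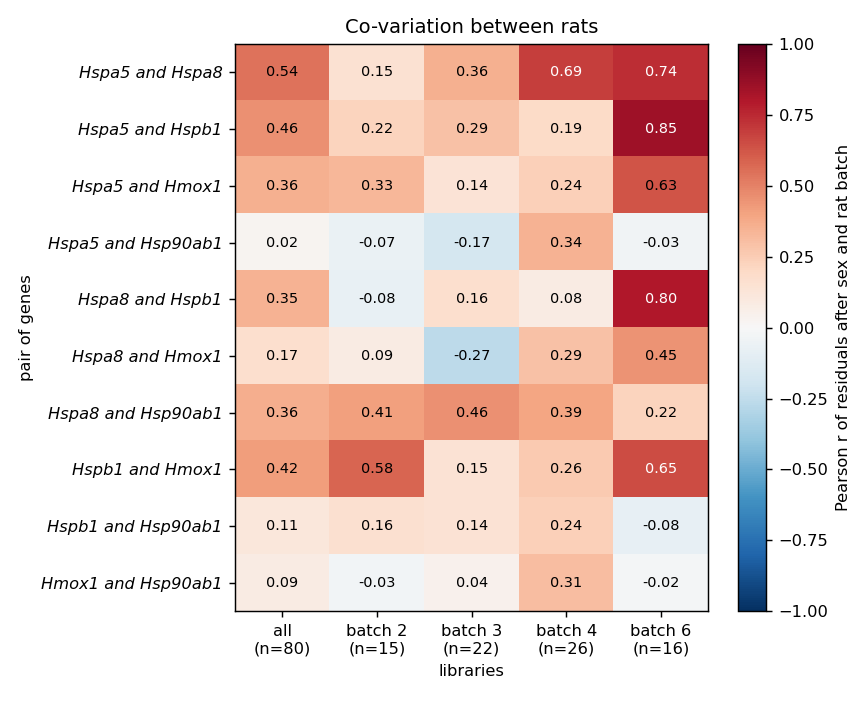
Pearson's r between the residuals of each pair of genes after sex and rat batch were removed, over all 80 rats and within batches 2, 3, 4 and 6. Red is positive and blue negative, and n is under each column. Hspa5 with Hspb1 is at 0.85 in batch 6 and at most 0.29 in the other 3 batches, and Hspa8 with Hsp90ab1 is positive in all 4.

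Each gene had closer companions outside the set. Among the 14802 other genes whose mean log2 value reached 3, ranked by r of the residuals over the 80 rats, those most like Hspa5 were ENSRNOG00000026963 (r = 0.89) and ENSRNOG00000003029 (r = 0.88). Within batches 2, 3, 4 and 6 the first had r of 0.95, 0.78, 0.94 and 0.89. All genes named here were picked by r over these same rats, so the values by batch are not a separate check. ENSRNOG00000003029 was also among the genes most like Hspa8 (r = 0.64), after ENSRNOG00000000902 (r = 0.67). For Hsp90ab1 they were ENSRNOG00000019164 (r = 0.79) and ENSRNOG00000011329 (r = 0.78), for Hspb1 ENSRNOG00000021824 and ENSRNOG00000006877 (both r = 0.68), and for Hmox1 ENSRNOG00000000503 and ENSRNOG00000060538 (both r = 0.57). Some of these were less even across batches 2, 3, 4 and 6. ENSRNOG00000006877 with Hspb1 had r of 0.44, 0.23, 0.72 and 0.82, and ENSRNOG00000019164 with Hsp90ab1 had 0.84, 0.88, 0.73 and 0.48. The same scaling of each library enters all of these values. Hspa5 ranked 7 among the genes most like Hspa8, whereas Hspa8 ranked 178 for Hspa5. The best ranked member for Hspb1 was Hspa5, for Hmox1 it was Hspb1, at 113, and for Hsp90ab1 it was Hspa8, at 882.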

How the data were processed

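RNA-Seq was analysed in 80 libraries of the 88 samples in the labels. The authors removed 8 samples, for which the table held 0 columns. According to the methods and the labels, the authors trimmed reads with cutadapt, estimated gene counts with RSEM on the Ensembl rat transcriptome (the labels name Rnor_6.0), scaled them to the upper quartile with DESeq2, added 1 and took log2. The deposited values are on this log2 scale. Differences understate the change of low genes, and depth was recovered from the spacing of whole values between 0.6 and 4.5 per read.

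Models were fitted on all 17123 genes with limma 3.58.1 (R 4.3.3; lmFit and eBayes with a mean trend) and adjusted by Benjamini-Hochberg, with a threshold of 0.05. The study states no batch or sex test. The batch model held sex and used batches 2, 3, 4 and 6, and the sex model held batch. A pair of genes was called if limma passed in both directions, and the larger adjusted p is given. Correlations used residuals after sex and batch and 100000 two-sided permutations within batch. Rats are separate animals, and shared parents were not modelled. Scripts were tested on simulated data. Statistics and plots were made in Python 3.11.15 (scipy 1.17.1, numpy 2.4.6, matplotlib 3.10.9 and pandas 2.3.3).

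The 5 genes, the lists and the tests were chosen with earlier results of these data known. Besides the 5 genes, the 2 genes most like each were named. The RefSeq table (GRCr8) held 0 Ensembl identifiers, so lists of related pathway genes and cell type markers were not used. The 5 symbols came with the list of identifiers.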

Additional observations from a re-analysis of the deposited data

How the results depend on the processing

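All 5 genes were called across rat batches, and with the column stretch as a further term 1 was (Hspb1), with 20 principal components as covariates 0. The components come from these same values, so fits with them cannot separate batch or co-variation from what they hold. For single pairs of batches inside a stretch, settings chosen after seeing the data, 0 were called for 2 and 3 inside stretch 1, as over all stretches. For 4 and 6 inside stretch 3, 1 was called, and these are the same libraries as in that pair over all stretches. The 6 pairs called for co-variation became 0 with 20 components, where between 0% and 0.345% of all genes were called against each of the 5, although the slope of Hspb1 on Hspa5 was 1.07 against 0.98 before and that of Hsp90ab1 on Hspa8 0.20 against 0.21. Fitted on a single batch, they were 0 for batch 2 (0% to 1.45% of all genes called), 0 for batch 3 (0% to 13.7%, and 0% against 4 of the 5), 1 for batch 4 (0% to 9.19%) and 2 for batch 6 (0% to 4.37%). They became 3 without batch 2 (1.32% to 15.4% of all genes called), 3 without batch 4 (0.683% to 18%) and 1 without batch 6 (0.514% to 19%). Without the library with the most genes at 0, a setting chosen after seeing the data, they became 3 (2.2% to 18.2%). Single batches hold fewer rats. The median residual SD of the 5 genes, 0.2545, was 0.138 after 20 components. The cause of these changes was not tested. No result reversed its direction past the threshold. No paired analysis was possible because the labels give no numbers that tie a rat of 1 group to a rat of another. Of the 5 genes, Hmox1 had the largest share of its spread in counting error, with a counting SD of 0.144 against 0.30.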
